A study of Homo sapiens with 12 samples.

Results

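Focal adhesion kinase (FAK, gene PTK2), its relative PYK2 (PTK2B) and 7 direct signalling partners were followed at the mRNA level through a series of kinase inhibitor treatments. The partners are the kinase SRC, the scaffolds PXN (paxillin), BCAR1 (p130Cas) and NEDD9 (HEF1), the adaptors GRB2 and CRK, and RB1CC1 (FIP200). Members were all probes that the platform annotation gives 1 of these 9 symbols, which came to 17 of the 47318 probes on the array. PTK2 had 2 probes, PTK2B 3, SRC 3, GRB2 2, NEDD9 4, and PXN, BCAR1 and RB1CC1 1 each. No probe in the annotation used here carried the symbol CRK, so CRK has no value.

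FAK is a cytoplasmic tyrosine kinase that is recruited to integrin adhesions, where it phosphorylates itself and thereby creates a docking site for SRC. SRC then phosphorylates FAK and the scaffolds paxillin and p130Cas, which bind CRK, while GRB2 links phosphorylated FAK to RAS and ERK signalling. PYK2 has the same domain layout as FAK and responds to calcium, and RB1CC1 binds and inhibits both kinases and is also a subunit of the ULK complex that starts autophagy. The inhibitors act on the proteins, whereas the arrays measure only mRNA.

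RNA came from 12 samples labelled SKBR-3, a breast cancer line with amplified ERBB2 that is known to lack the oestrogen receptor. The 6 groups of 2 arrays were untreated cells, cells given a FAK inhibitor alone (Y15 or PF04554878, each 1 µM), cells given 5 µM lapatinib, and cells given lapatinib plus either FAK inhibitor at these doses. All treatments ran for 24 hours, and no vehicle is named for the untreated cells. Y15 blocks the autophosphorylation site of FAK, PF04554878 (defactinib) competes with ATP in FAK and PYK2, and lapatinib inhibits the EGFR and ERBB2 kinases. The combinations are written Y15/lapatinib and PF04554878/lapatinib below. Whether the 2 arrays of a group represent independent cultures is not stated, so the tests gauge only array-to-array spread, which may be technical. The labels' extraction protocol names frozen tissue as the source of the RNA, at odds with cultured cells.

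The arrays fell into pairs of like groups. Over 19554 probes, replicates of a group correlated with r from 0.988 to 0.996. Groups correlated nearly as highly within 3 pairs (mean r from 0.986 to 0.987), namely untreated with Y15, lapatinib with Y15/lapatinib, and PF04554878 with PF04554878/lapatinib, and less between the pairs (0.895 to 0.949). Probes are not independent replicates, so these values only describe the arrays. The oestrogen receptor gene ESR1 exceeded background on each of the 12 arrays (log2 group means between 9.85 and 10.44), which goes against the line named in the labels. All 7 of 7 SKBR-3 and luminal markers, ERBB2 included, were above background on at least 2 arrays as well, KRT7 on 7 of 12. The log2 group means of ERBB2 lay between 8.34 and 9.35 and those of GRB7 between 7.21 and 8.07. Being above background does not show an amplified ERBB2, which was not tested. The arrays are called below by their label only. Summed linear signal of 4 basal epithelial markers was 688 and 828 in the arrays labelled untreated and Y15, 1212 and 1010 with lapatinib and Y15/lapatinib, and 1085 and 1151 with PF04554878 and PF04554878/lapatinib. Of those 4, KRT5 and KRT14 were above background on 0 of 12 arrays and ACTA2 and CDH3 on all 12. In the same order, ACTA2 had log2 group means of 7.12 and 7.27, 9.36 and 8.79, and 8.87 and 8.81. CDH3 had 8.56 and 8.94, 8.54 and 8.57, and 8.79 and 9.04, so between the pairs the sum mainly followed ACTA2. The summed signal of 6 oestrogen receptor related markers was 10479 and 15857, 6137 and 7401, and 17296 and 18935 in the same order. That sum mainly followed TFF1, with log2 group means of 12.63 and 13.50, 6.48 and 6.63, and 13.65 and 13.73. The markers did not move together. With lapatinib against untreated, the group means of PGR, GREB1 and CA12 were higher and those of ESR1, GATA3 and TFF1 lower. Of the endothelial markers 0 of 5, of the leukocyte markers 1 of 5 and of the fibroblast markers 2 of 7 were above background on at least 2 arrays. The part of these differences in the results below was not tested, and treatment cannot be told apart from whatever else separates the 3 pairs. Comparisons within a pair (Y15 against untreated, Y15/lapatinib against lapatinib, PF04554878/lapatinib against PF04554878) are therefore given apart from the others.

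FAK itself was read by a bright probe, ILMN_1714364, and a dim one, ILMN_1676305. Values here and below are log2 intensities as deposited, in the order of the replicate numbers. The bright PTK2 probe read 11.07 and 11.17 without treatment, and 11.03 and 11.01 in the arrays labelled Y15. It stood at 10.57 and 10.43 with PF04554878 and at 10.68 and 10.61 with PF04554878/lapatinib. The lowest values were 10.12 and 10.31 with lapatinib and 10.36 and 10.26 with Y15/lapatinib. The untreated and Y15 arrays were thus the highest 4, the PF04554878 arrays lay in the middle and the lapatinib and Y15/lapatinib arrays at the bottom. Of neighbours in this order of group means, only Y15/lapatinib and lapatinib had overlapping arrays.

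By limma, with p-values adjusted over all 19554 probes tested, the bright PTK2 probe fell by 0.91 ± 0.10 (log2, standard error) in the arrays labelled lapatinib against untreated, a 1.88-fold lower level (adjusted p = 1.13e-06). It fell by 0.81 ± 0.10 with Y15/lapatinib (adjusted p = 3.93e-06), by 0.62 ± 0.10 with PF04554878 (adjusted p = 9.63e-05) and by 0.47 ± 0.10 with PF04554878/lapatinib (adjusted p = 0.000935). These comparisons share the 2 untreated arrays. In a culture, fewer cells with a transcript and less of it per cell cannot be told apart. Y15 against untreated differed by -0.10, with a 95% interval from -0.30 to 0.11 (adjusted p = 0.633), Y15/lapatinib against lapatinib by 0.10 (-0.11 to 0.30), and PF04554878/lapatinib against PF04554878 by 0.15 (-0.06 to 0.35), none past the threshold of 0.05. Between the inhibitors at matched doses, PTK2 was lower with PF04554878 than with Y15 by 0.52 ± 0.10 (adjusted p = 0.000424), but higher by 0.34 ± 0.10 when lapatinib was present with both (adjusted p = 0.00793). The second call was lost without Y15/lapatinib replicate 3 (adjusted p = 0.0698) or PF04554878/lapatinib replicate 1 (adjusted p = 0.0562). In Y15/lapatinib against Y15, PTK2 fell by 0.71 ± 0.10 (adjusted p = 1.55e-05). A change of the size seen with lapatinib against untreated lies outside the 3 intervals above.

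The dim PTK2 probe moved less. Its values were 7.39 and 7.09 without treatment, 7.02 and 7.17 with Y15, 7.07 and 7.03 with lapatinib, and 6.89 and 6.95 with Y15/lapatinib. With PF04554878 it stood at 7.17 and 7.16, and with PF04554878/lapatinib at 7.25 and 7.06. Most groups overlapped here, and Y15/lapatinib lay lowest. Y15/lapatinib against untreated was its one call, -0.32 ± 0.11 (adjusted p = 0.0234), which ended in a fit of these 2 groups alone (adjusted p = 0.0792). Leaving out single arrays ended the call in 3 of 4 cases, and without untreated replicate 1 the change was -0.17. With PF04554878 against untreated it differed by -0.07, with an interval from -0.30 to 0.16. As differences are compressed this close to background, sizes on the dim and the bright probe cannot be compared. The platform annotation assigns the probes to different PTK2 transcripts, NM_005607 for the bright and NM_153831 for the dim one.

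PYK2 was close to background throughout. Background is described here by a cutoff of 6.81, set at 3 SD above the mode of all values. Probe ILMN_2330966 of PTK2B exceeded it on 8 of 12 arrays, with group means from 6.74 (PF04554878/lapatinib) to 6.93 (Y15/lapatinib). ILMN_1732318 exceeded it on 2 arrays, with group means from 6.67 to 6.82, and ILMN_1765189 on 0, with group means from 6.38 to 6.59. No PTK2B probe passed the test in any comparison. For ILMN_2330966 the intervals ran from -0.20 to 0.19 for Y15 against untreated and from -0.15 to 0.24 for PF04554878 against untreated. The largest of its differences, -0.19 for PF04554878/lapatinib against Y15/lapatinib (adjusted p = 0.0947), passed only after background subtraction, at -0.61 (adjusted p = 0.0250). Near the cutoff a difference in log2 intensity understates a change in mRNA, so a change in PYK2 may have been out of reach of these probes.

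**Figure D1:**
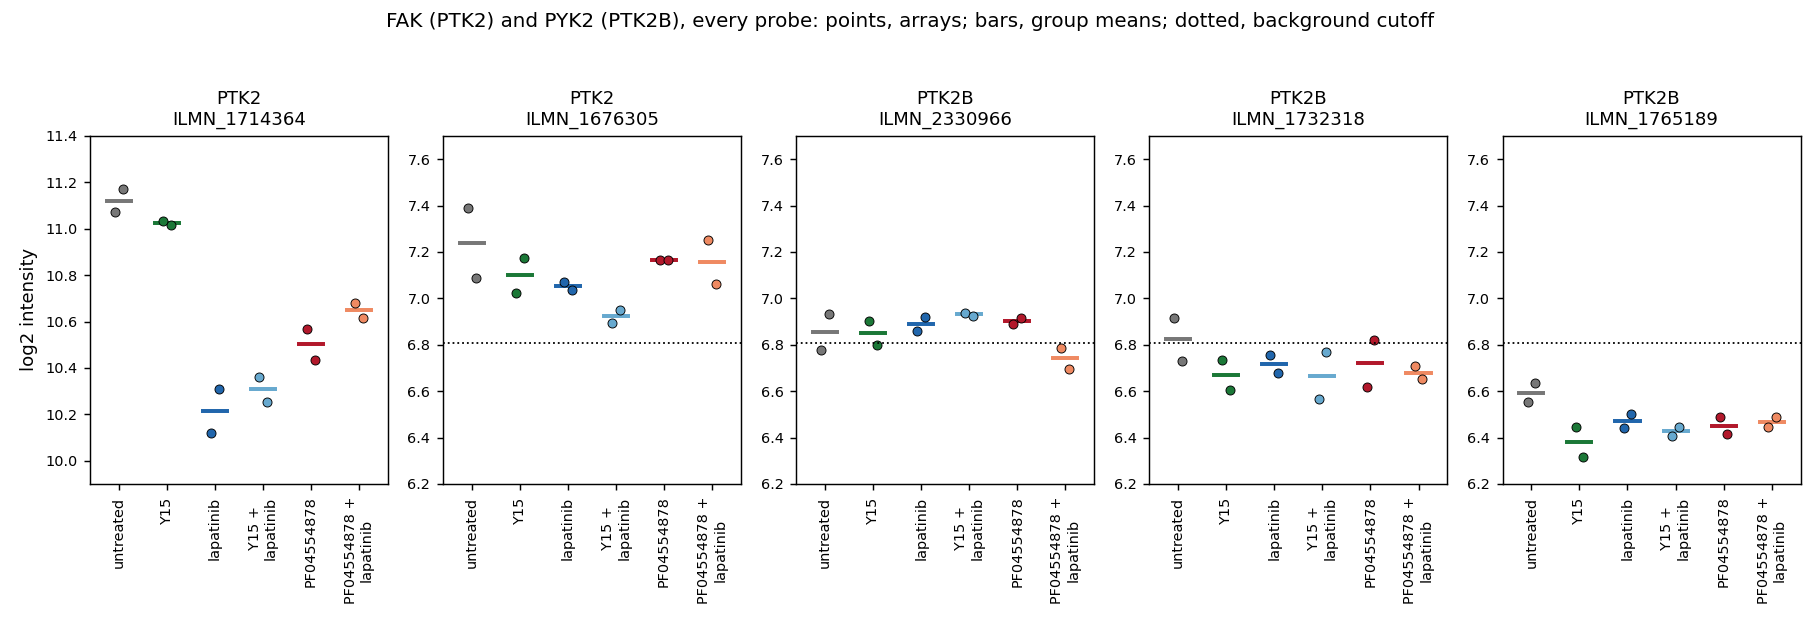
Every probe of PTK2 and PTK2B by labelled group. The y axis is log2 intensity, with its own range for the first panel; points are arrays, bars are means of 2 arrays, and the dotted line is the background cutoff of 6.81. The bright PTK2 probe falls from 11.12 in the untreated arrays to 10.21 with lapatinib, while the PTK2B probes lie near or below the cutoff.

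SRC, the kinase that docks on FAK, varied most. Its one measurable probe, ILMN_1729987, read 8.49 and 8.56 without treatment, and 8.71 and 8.40 with Y15. It rose to 9.44 and 9.55 with lapatinib and to 9.33 and 9.21 with Y15/lapatinib. In the arrays labelled PF04554878 it stood at 7.24 and 7.11, and with PF04554878/lapatinib at 7.49 on both. The PF04554878 arrays, with or without lapatinib, were the 4 lowest and the lapatinib and Y15/lapatinib arrays the 4 highest, with the untreated and Y15 arrays between and overlapping each other. Its group means spanned 2.32 log2 units, a 4.98-fold range, which exceeded that of 98.2% of the probes tested, whose median was 0.57.

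Against untreated, SRC fell by 1.35 ± 0.11 with PF04554878, 2.55-fold (adjusted p = 1.02e-07), and by 1.04 ± 0.11 with PF04554878/lapatinib (adjusted p = 1.59e-06). It rose by 0.97 ± 0.11 with lapatinib, 1.95-fold (adjusted p = 1.75e-06), and by 0.74 ± 0.11 with Y15/lapatinib (adjusted p = 2.89e-05). All 4 calls kept their direction and significance with each array left out in turn. Y15 against untreated differed by 0.03, with an interval from -0.20 to 0.25. Set directly against each other at 1 µM, PF04554878 had 2.60-fold less SRC than Y15 (-1.38 ± 0.11, adjusted p = 8.07e-08). In the presence of lapatinib the gap was 3.42-fold (-1.78 ± 0.11, adjusted p = 1.83e-09). With the background subtracted, the SRC change with PF04554878 against untreated was -2.13 on the log2 scale, against -1.35 as deposited. The other 2 SRC probes were above the cutoff on 0 of 12 arrays, with group means from 6.47 to 6.75, so the SRC pattern rests on 1 probe, and no second probe could check it.

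GRB2, the adaptor that joins FAK to RAS signalling, was measured by 2 probes above background on all arrays. ILMN_1748797 read 9.12 and 8.65 without treatment, 8.65 and 8.73 with Y15, and 8.68 and 8.60 with lapatinib. It was lowest with Y15/lapatinib, at 8.09 and 8.39, and highest with PF04554878, at 9.47 and 9.65, and PF04554878/lapatinib, at 9.40 and 9.34. On this probe all arrays labelled PF04554878, alone or combined, exceeded all others. The second probe, ILMN_1742521, read 8.45 and 8.40 without treatment, 8.49 and 8.78 with PF04554878, 8.48 and 8.99 with PF04554878/lapatinib, and 8.04 and 7.90 with Y15/lapatinib. Its values with Y15 were 8.48 and 8.20, and with lapatinib 8.20 and 8.22. Both probes therefore placed Y15/lapatinib at the bottom and the PF04554878 groups at the top, although the second overlapped more.

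ILMN_1748797 rose by 0.67 ± 0.14 with PF04554878 against untreated (adjusted p = 0.000974) and by 0.48 ± 0.14 with PF04554878/lapatinib (adjusted p = 0.00965), and fell by 0.65 ± 0.14 with Y15/lapatinib (adjusted p = 0.000924). The untreated arrays differed by more on this probe (SD 0.33) than any other group. Without untreated replicate 2 the change was 0.25 for PF04554878/lapatinib (adjusted p = 0.137) and 0.44 for PF04554878, and without untreated replicate 1 it was 0.90 for PF04554878 and -0.42 for Y15/lapatinib. Without PF04554878/lapatinib replicate 1 the call for that combination was also lost (0.45, adjusted p = 0.0636). ILMN_1742521 differed by 0.21 and 0.31 in the first 2 of these comparisons, neither past the threshold, and fell by 0.46 ± 0.15 with Y15/lapatinib (adjusted p = 0.0168), a call lost without untreated replicate 1 (adjusted p = 0.0563) or Y15/lapatinib replicate 3 (adjusted p = 0.107). GRB2 was higher in the arrays labelled PF04554878/lapatinib than in those labelled Y15/lapatinib on both probes, by 1.13 ± 0.14 and 0.76 ± 0.15 (adjusted p = 4.49e-06 and 0.000415). Against lapatinib alone, PF04554878/lapatinib was higher by 0.73 ± 0.14 and 0.53 ± 0.15 (adjusted p = 0.000312 and 0.00645), the second value becoming 0.27 without PF04554878/lapatinib replicate 2 (adjusted p = 0.143). For the inhibitors alone the differences were 0.87 ± 0.14 (adjusted p = 0.000100) and 0.29, the latter not past the threshold.

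The region just upstream of GRB2 is shown because GRB2 was the one member with called probes for which the sequence table used here listed exactly 1 transcription start. The 250 bases before the start come from RefSeq (GRCh38.p14), chr17:75405679-75405928 on the minus strand, and the capitals mark the letters GGGCGG, the GC box read by SP1 family factors.
GRB2: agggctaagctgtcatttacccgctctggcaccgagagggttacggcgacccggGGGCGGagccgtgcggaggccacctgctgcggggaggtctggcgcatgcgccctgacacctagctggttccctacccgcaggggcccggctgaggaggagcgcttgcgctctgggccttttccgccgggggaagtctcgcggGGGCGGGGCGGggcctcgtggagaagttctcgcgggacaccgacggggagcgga
Searched on both strands, the stretch held GGGCGG 3 times, 2 of them overlapping by 1 base, and CCAAT and TATAAA 0 times. Of 35116 promoters of the same length, 42.6% held GGGCGG at least once and 24.3% held it at least 2 times, while 32% held CCAAT and 10.7% TATAAA. The stretch was 71.6% G and C. These matches describe the letters only.

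Among the scaffolds, paxillin, the platform on which FAK and SRC meet, showed a small difference. PXN read 7.11 and 7.30 without treatment, against 7.45 and 7.65 with lapatinib. Its values were 7.37 and 7.18 with Y15, 7.44 and 7.40 with Y15/lapatinib, 7.46 and 7.37 with PF04554878, and 7.38 and 7.53 with PF04554878/lapatinib. Lapatinib against untreated was its only call in the 13 comparisons, 0.35 ± 0.11 (adjusted p = 0.0126), and it was lost without untreated replicate 1 (adjusted p = 0.0985) or lapatinib replicate 2 (adjusted p = 0.137). BCAR1, whose many phosphorylation sites bind CRK, passed in none. In fits of the compared groups alone it passed for Y15/lapatinib against Y15 (-0.26, adjusted p = 0.0283) and for PF04554878/lapatinib against Y15/lapatinib (0.27, adjusted p = 0.0257). Its values lay between 7.35 and 8.05, and its replicates differed widely in places, with 7.58 and 8.05 for PF04554878 and 7.75 and 7.35 for lapatinib.

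NEDD9, the other Cas family scaffold in the set, was at background on most arrays. Of its 4 probes, ILMN_1743619 and ILMN_1726164 never exceeded the cutoff. ILMN_1758719 exceeded it on 4 arrays, among them both labelled Y15/lapatinib and neither labelled PF04554878/lapatinib. This probe was lower in PF04554878/lapatinib than in Y15/lapatinib (-0.23 ± 0.09, adjusted p = 0.0478 by limma), a call lost in a fit of those groups alone (adjusted p = 0.0564). Leaving out single arrays ended that call in 4 of 4 cases. ILMN_2261076 exceeded the cutoff on 3, which were 1 array labelled lapatinib and both labelled Y15/lapatinib. Since these arrays alone carried ILMN_2261076 through the filter, a difference there was built in. This also holds for its calls in Y15/lapatinib against Y15 (0.28) and in PF04554878/lapatinib against lapatinib (-0.24) and against Y15/lapatinib (-0.29). That probe stood at 6.80 and 6.84 with lapatinib and 6.85 and 6.88 with Y15/lapatinib, against 6.60 and 6.55 in the untreated arrays, at least 1.01-fold and at least 1.04-fold higher as bounds from the cutoff. The fitted differences were 0.25 ± 0.09 and 0.29 ± 0.09 (adjusted p = 0.0407 and 0.0190), and each lost its call in a fit of the compared groups alone. Leaving out single arrays ended the lapatinib call in 4 of 4 cases.

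RB1CC1, the inhibitor of FAK and PYK2 in the set, was high in 2 of the 3 groups given lapatinib and not in PF04554878/lapatinib. It stood at 8.63 and 8.66 with lapatinib and at 8.94 and 8.93 with Y15/lapatinib. The untreated arrays had 8.25 and 8.43, those labelled Y15 8.31 and 8.38, those labelled PF04554878 8.26 and 7.99, and those labelled PF04554878/lapatinib 8.25 and 8.10. Every array labelled lapatinib or Y15/lapatinib exceeded every other array. RB1CC1 rose by 0.60 ± 0.10 with Y15/lapatinib against untreated (adjusted p = 0.000191) and by 0.31 ± 0.10 with lapatinib (adjusted p = 0.0228). The smaller rise was lost without untreated replicate 1 (0.21, adjusted p = 0.150), without either lapatinib array, and after background subtraction (0.39, adjusted p = 0.0659). PF04554878/lapatinib lay 0.47 ± 0.10 below lapatinib (adjusted p = 0.00145) and 0.76 ± 0.10 below Y15/lapatinib (adjusted p = 1.88e-05). The bright PTK2 probe was lowest in the 4 arrays in which RB1CC1 was highest, a description of 12 arrays in 3 sets that does not extend to the dim PTK2 probe.

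**Figure D2:**
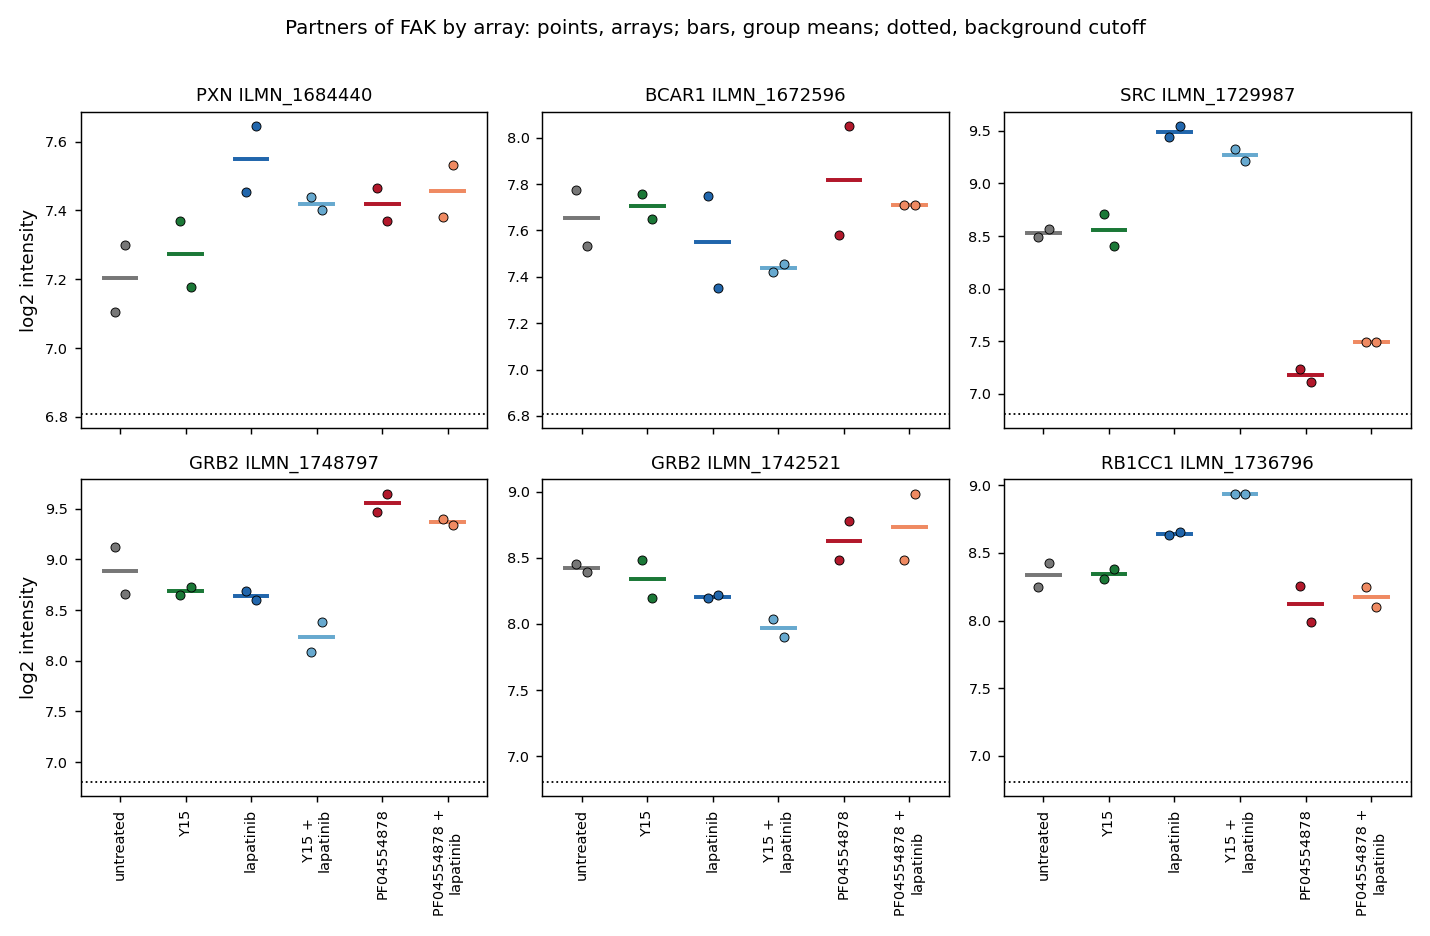
The 6 probes of PXN, BCAR1, SRC, GRB2 and RB1CC1 that were above background on all 12 arrays. The y axes show log2 intensity and differ between panels; points are arrays, bars are means of 2 arrays and the dotted line is the cutoff of 6.81. SRC spans 7.18 to 9.49 in group means, and RB1CC1 is highest with Y15/lapatinib at 8.94. GRB2 is highest with PF04554878 on ILMN_1748797 and with PF04554878/lapatinib on ILMN_1742521.

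Counts by comparison put these changes beside the rest of the array. Of the 17 probes, 12 passed the filter of at least 2 arrays above the cutoff and were tested. Within the 3 pairs of like groups, limma called 0 of 12 for Y15 against untreated, where 3.37% of all probes were called, 0 of 12 for Y15/lapatinib against lapatinib (9.44% of all) and 0 of 12 for PF04554878/lapatinib against PF04554878 (6.55% of all). At an unadjusted p under 0.05 the counts were 0, 3 and 1. The 3 were GRB2 (-0.40 ± 0.14, adjusted p = 0.0753), RB1CC1 (0.29 ± 0.10, adjusted p = 0.0937) and SRC (-0.23 ± 0.11, adjusted p = 0.212), and the 1 was SRC (0.32 ± 0.11, adjusted p = 0.0954). In a fit of the lapatinib and Y15/lapatinib arrays alone, GRB2 and RB1CC1 passed (adjusted p = 0.0288 and 0.0445). Without untreated replicate 2, GRB2 passed for Y15 against untreated (-0.43, adjusted p = 0.0481).

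Between the pairs the counts were higher, for these probes as for all. Against untreated, 3 of 12 were called with PF04554878 (1 higher, 2 lower, against 39.4% of all probes), 5 with lapatinib (4 higher, 1 lower, 51.3% of all), 7 with Y15/lapatinib (3 higher, 4 lower, 49.2% of all) and 3 with PF04554878/lapatinib (1 higher, 2 lower, 40% of all). With lapatinib present in both groups, 6 of 12 were called for PF04554878/lapatinib against lapatinib (52.2% of all) and 7 for PF04554878/lapatinib against Y15/lapatinib (49% of all). For PF04554878 against Y15 it was 3 (41.6% of all), and for Y15/lapatinib against Y15 it was 6 (49% of all). The counts for lapatinib and Y15/lapatinib against untreated include NEDD9 probe ILMN_2261076, in which a difference was built in. So do those for Y15/lapatinib against Y15 and for PF04554878/lapatinib against lapatinib and against Y15/lapatinib. The last also includes NEDD9 probe ILMN_1758719, close to the threshold (adjusted p = 0.0478). The member shares, 25% to 58.3%, lay around those of the whole array, so the number of calls says nothing particular about FAK and its partners. The lapatinib count fell to 2 without untreated replicate 1 or lapatinib replicate 2 and to 3 without lapatinib replicate 1. Without Y15/lapatinib replicate 3 the counts of 7 fell to 4, and without Y15/lapatinib replicate 1 the count of 6 against Y15 fell to 3.

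**Figure D3:**
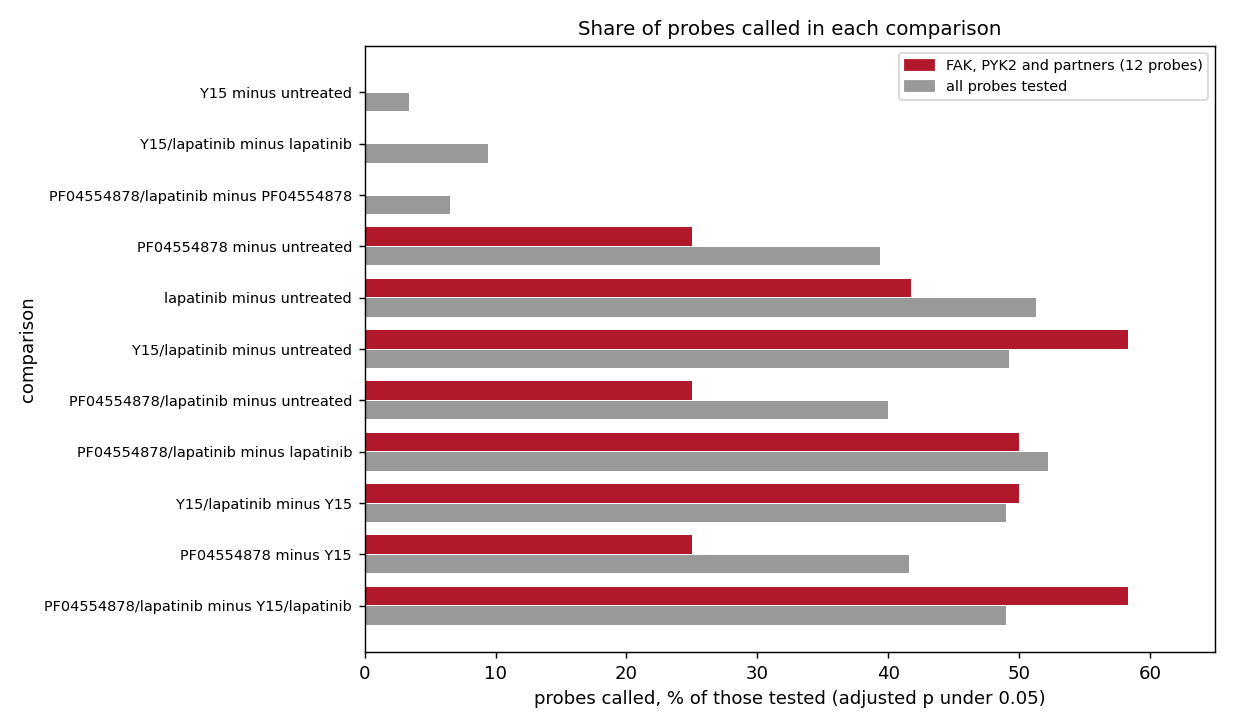
Share of probes called (adjusted p under 0.05) in each comparison, in percent of those tested, for the 12 tested probes of FAK, PYK2 and partners and for all 19554 probes. The first 3 comparisons lie within the pairs of like groups and show 0% of the 12 probes, against 3.37% to 9.44% of all.

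**Figure D4:**
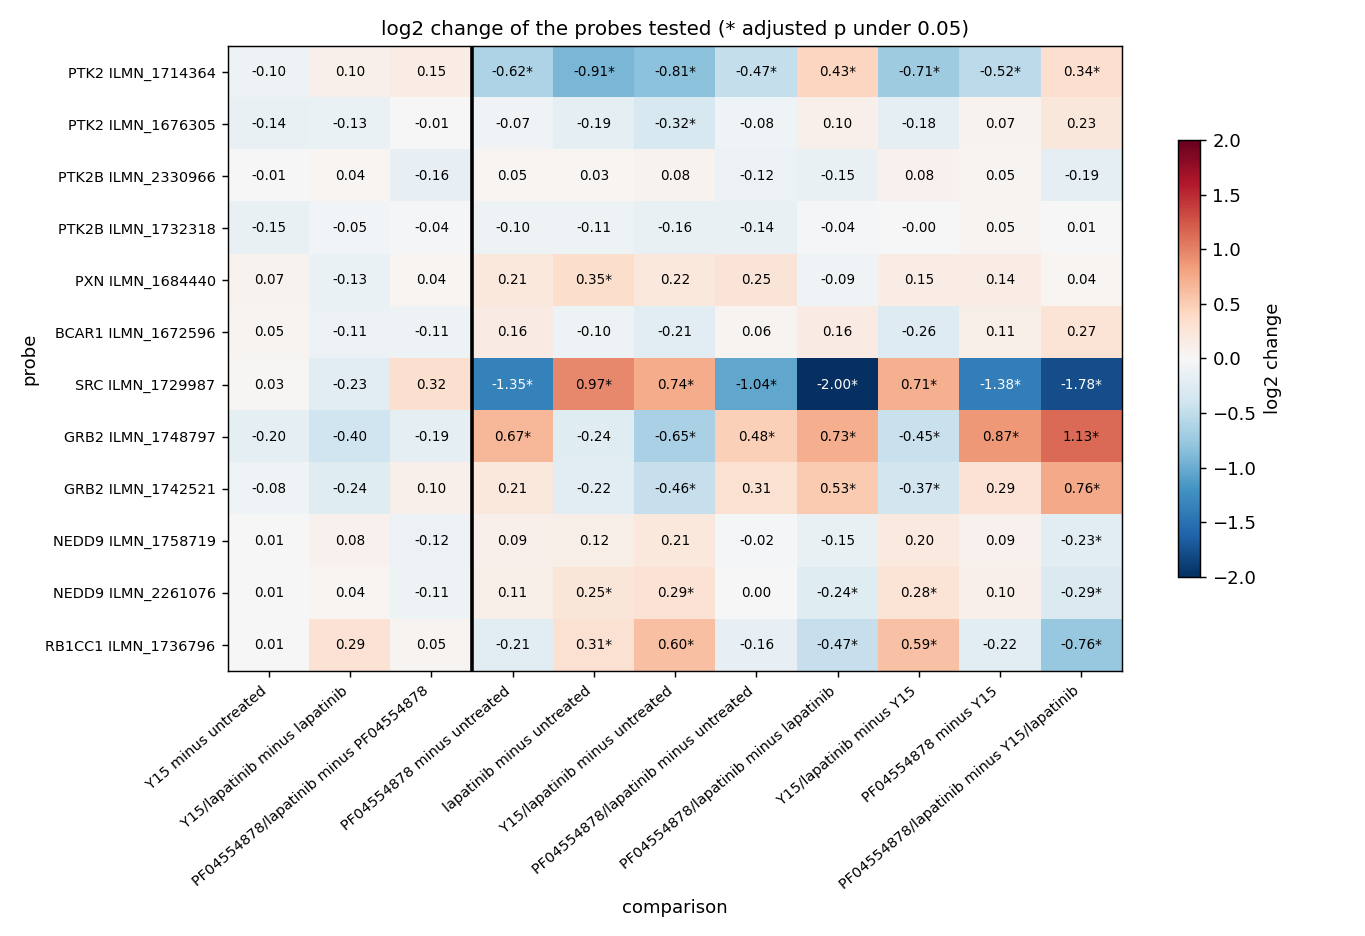
Difference in log2 intensity (colour and number) of the 12 tested probes in 11 comparisons, with an asterisk at adjusted p under 0.05. The columns left of the black line lie within the pairs of like groups and hold no asterisk; SRC has the largest differences of the 12 probes, from -2.00 to 0.97.

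The design also allows the effect of lapatinib to be set against its effect in the presence of a FAK inhibitor. For Y15 by lapatinib, 0 of the 12 probes passed by limma, also 0 at an unadjusted p under 0.05 (2.67% of all probes called). The interaction of the bright PTK2 probe was 0.19, with an interval from -0.09 to 0.48. For PF04554878 by lapatinib 3 passed (40% of all called). The bright PTK2 probe fell by 0.91 with lapatinib alone and differed by 0.15 when lapatinib was added to PF04554878, an interaction of 1.05 ± 0.14 (adjusted p = 1.69e-05). SRC rose by 0.97 with lapatinib alone and differed by 0.32 when it was added to PF04554878, an interaction of -0.65 ± 0.15 (adjusted p = 0.00266), which did not pass after background subtraction (-0.52, adjusted p = 0.101). The third was NEDD9 probe ILMN_2261076, which entered the test only through its lapatinib and Y15/lapatinib arrays, so that a difference was built in. For PF04554878 by lapatinib, the groups compared without the FAK inhibitor belong to different pairs and those compared with it to the same pair. For Y15 by lapatinib, the groups of both terms belong to different pairs.

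Around the members, 47 further genes of the pathway were read by their brightest tested probe, and 41 had one. The list holds Src family kinases and their regulators, other Cas and paxillin relatives, adaptors beside GRB2 and CRK, small GTPases and their regulators, the adhesion core and the ULK complex. For Y15 against untreated 1 of 41 rose and 1 fell, where 3.37% of all probes were called. ULK1, the autophagy kinase that binds RB1CC1, rose by 0.64 ± 0.15 (adjusted p = 0.0354), and PTPN12, a phosphatase of p130Cas, fell by 0.66 ± 0.11 (adjusted p = 0.00558). For Y15/lapatinib against lapatinib 4 rose and 0 fell (9.44% of all probes called). Among the 4 were the phosphatase PTPN11 (0.42 ± 0.11, adjusted p = 0.0223) and the GTPase RAC1 (0.40 ± 0.12, adjusted p = 0.0482). For PF04554878/lapatinib against PF04554878 1 rose and 4 fell (6.55% of all probes called). The adaptor SHC1 rose (0.39 ± 0.10, adjusted p = 0.0354), and the adhesion protein ZYX was among those that fell (-0.63 ± 0.14, adjusted p = 0.0118). These small counts were not tested against the shares of all probes.

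Against untreated, 5 of the 41 rose and 11 fell with PF04554878, close to the 39.4% of all probes called, so the count says nothing particular about the pathway. The group of GTPases and their regulators had 7 of 8 measured genes lower and 0 higher, with a median of -0.42 against -0.01 for all probes tested, beside 39.4% of all probes called in either direction. This is a description with no test of the group. GIT1, a paxillin-binding scaffold, fell by 1.02 ± 0.11 (adjusted p = 2.12e-06) and PAK2, a kinase downstream of RAC1, by 0.76 ± 0.10 (adjusted p = 1.4e-05). The adhesion core had 4 of 8 higher and 0 lower, including PARVA, a parvin (1.09 ± 0.10, adjusted p = 3.76e-07). PTPN1, a phosphatase that acts on SRC and p130Cas, rose by 1.29 ± 0.08 (adjusted p = 1.23e-08). With PF04554878/lapatinib 5 rose and 12 fell, again with PTPN1 (1.33 ± 0.08) and PARVA (1.27 ± 0.10) highest (40% of all probes called). In the GTPase group 5 of 8 were lower and 0 higher, while the adhesion core had 2 of 8 higher and 3 lower, with a median of -0.01.

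With lapatinib 13 of the 41 rose and 10 fell against untreated, near the share of all probes called (51.3%). TNS3, a tensin, and VCL, vinculin, rose by 1.35 ± 0.10 and 1.25 ± 0.11 (adjusted p = 1.7e-08 and 1.26e-07). ASAP1, an Arf regulator that binds FAK, fell by 1.64 ± 0.09 (adjusted p = 7.29e-10) and LIMS1, the PINCH adaptor of integrin-linked kinase, by 1.39 ± 0.12 (adjusted p = 1.36e-07). With Y15/lapatinib 16 rose and 13 fell, where 49.2% of all probes were called, led by VCL (1.45 ± 0.11), TNS3 (1.26 ± 0.10), ASAP1 (-1.31 ± 0.09) and LIMS1 (-1.19 ± 0.12). Most genes named for lapatinib or PF04554878 shifted alike with both against the same untreated arrays. GIT1 (-0.70), PARVA (0.62) and PTPN1 (0.51) were also called with lapatinib. VCL (0.85), TNS3 (0.67) and ASAP1 (-0.71) were also called with PF04554878. PAK2 was higher with lapatinib (0.47), and LIMS1 was not called with PF04554878 (-0.11). Among other Src family kinases, YES1 and LYN moved in opposite directions. For PF04554878/lapatinib against lapatinib YES1 was higher by 1.41 ± 0.11 (adjusted p = 2.84e-08), while LYN, below background in the first group, was at least 1.92-fold lower (adjusted p = 1.53e-07) and SRC was lower by 2.00.

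The genes whose profile over the 12 arrays was most like that of the bright PTK2 probe were SNORA70 (Pearson r = 0.988), USP3 (0.978), SMG1 (0.978) and BCL11B (0.976). USP3, for example, had group means of 10.17 untreated, 9.94 with Y15, 8.91 with lapatinib, 8.89 with Y15/lapatinib, 9.26 with PF04554878 and 9.33 with PF04554878/lapatinib, so that its arrays, too, lay at about 3 levels. Since the arrays fall into 3 sets, such an r mainly compares 3 levels. For PTK2B probe ILMN_2330966 the nearest profiles were ZNHIT3 (r = 0.845), ANKRD28 (0.831), RNF141 (0.828) and TUFT1 (0.824), less close than those of PTK2. The group means of that probe lay only between 6.74 and 6.93, near the cutoff. These r are the highest among all tested probes with a symbol, and whether they exceed those of unrelated profiles was not tested.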

How the data were processed

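Biotin-labelled cRNA from 12 samples was hybridised to Illumina arrays per the labels. The authors deposited log2 probe intensities; GenomeStudio is named, without version, in the submitters' processing notes, and background handling is not given in the sources used here. Once sorted, the 12 columns were nearly identical (largest difference 0.0146), the pattern of quantile normalization. Folds on this scale are compressed, most for dim probes. A second deposited table holds 24 per-sample columns whose names match no label, and it was not used, so no detection p-values were available.

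Background was the mode of all values (6.555, bins of 0.01) and the SD of the values below it (0.0845), and the cutoff was 3 SD above. Probes above it on at least 2 arrays were tested, 19554 of 47318. Symbols came from the platform annotation, with 30111 probes carrying 1 symbol and 8 several. Group means were fitted with limma 3.58.1 (R 4.3.3) to all 12 arrays, with 6 residual and 9.04 prior degrees of freedom, and p-values were adjusted by Benjamini-Hochberg within each of 13 comparisons, with a threshold of 0.05. The fit was tested on simulated data. Where one group lay below the cutoff, the fold is a bound taken from the cutoff.

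Every probe of the members is reported. Of the pathway lists, up to 2 genes each way with the largest change among called genes without overlap between the groups were named per comparison, and 4 profile neighbours each for PTK2 and PTK2B. Not all names this rule gives are printed. Members and lists were chosen with earlier results of these data known. Alternatives were no filter, a filter on all 12 arrays, the replicate number as a block, a fit of only the groups compared, background subtraction (linear value minus the mode, plus 16), 1 probe a gene, and each array left out in turn. The number of arrays limits the precision.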

Additional observations from a re-analysis of the deposited data

Results flagged for a closer look

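The effect of lapatinib with and without PF04554878 was compared by the interaction term of the limma fit, which 3 of the 12 tested probes passed. For the bright PTK2 probe (ILMN_1714364) the interaction was 1.05 on the log2 scale (adjusted p = 1.69e-05), as PTK2 fell with lapatinib alone and did not pass the test when lapatinib was added to PF04554878. For SRC (ILMN_1729987) it was -0.649 (adjusted p = 0.00266), and after background subtraction -0.52, no longer past the threshold (adjusted p = 0.101). For NEDD9 (ILMN_2261076) it was -0.353 (adjusted p = 0.0478). That probe passed the filter only through 3 arrays labelled lapatinib or Y15/lapatinib, so a difference was built in, and the call was lost in 6 of 8 fits with an array left out. The term sets arrays of 3 different sets against each other, and 40% of all probes passed it. The part of the sets in these values was not tested. Groups of 2 arrays allow no check for a single array far from the others.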

How the results depend on the processing

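No result on the probes of FAK, PYK2 and partners changed its direction while called. Single values were followed for every called probe and, called or not, for the bright PTK2 probe and PTK2B probe ILMN_2330966. Of these, 289 of 302 kept their side of the threshold under alternatives other than leaving out an array, 12 lost and 1 gained a call. With an array left out, 217 of 264 kept it and 47 lost it. Over all 12 tested probes, 8 calls were gained under the first kind of alternative, in fits of the compared groups only (RB1CC1, GRB2, BCAR1) or after background subtraction (NEDD9 ILMN_1758719, PTK2B), and 10 with an array left out. The number of called probes stayed within 1.5 times under every alternative that kept all arrays, except in a fit of the compared groups only, where Y15/lapatinib against lapatinib had 2 in place of 0. With each array left out, counts ran from 0 to 1 for Y15 against untreated (0 with all arrays), from 2 to 6 for lapatinib (5), from 4 to 7 for Y15/lapatinib (7) and from 3 to 4 for PF04554878 (3). They ran from 3 to 5 for Y15/lapatinib against Y15 (6), from 4 to 5 for PF04554878/lapatinib against Y15/lapatinib (7) and against lapatinib (6), from 3 to 4 for PF04554878 against Y15 (3) and from 2 to 3 for the PF04554878 by lapatinib interaction (3). After background subtraction the SRC interaction was -0.52 (adjusted p = 0.101) and PTK2 between the combinations was 0.36 (adjusted p = 0.0500447).

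Over all probes, counts moved by more than 1.5 times for comparisons within the pairs of like groups and for the Y15 interaction. Y15 against untreated had 659, against 49 in a fit of the compared groups, 437 with the replicate block, 133 after background subtraction, and 99 to 1601 with an array left out. Y15/lapatinib against lapatinib had 1845, against 604 after background subtraction and 381 to 938 with an array left out. PF04554878/lapatinib against PF04554878 had 1281, against 611 and 471 to 698. The Y15 interaction had 523, against 297, 7 and 44 to 1376. The cause was not tested.

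Same-numbered arrays did not deviate together (correlations from -0.293 to 0.111 over 10 pairs of groups, 1 above 0.1), so the numbers are not taken as pairs. With the replicate number as a block the counts were 0 for Y15, 3 for PF04554878, 5 for lapatinib and 3 for PF04554878/lapatinib against untreated, and 2 for the PF04554878 interaction, where NEDD9 was lost (adjusted p = 0.0562). No paired analysis was possible for Y15/lapatinib because its arrays are numbered 1 and 3.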
